A study of Mus musculus with 5 samples.

Results

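The 30 genes described here encode glutamate receptors and the auxiliary proteins that bind them, measured in mouse retina at postnatal day 7. They were selected by gene symbol from a list drawn up with earlier results of these data known: 4 AMPA, 5 kainate and 7 NMDA receptor subunits, the delta subunit Grid1, 6 metabotropic receptors, and 7 auxiliary proteins of AMPA or kainate receptors. All 30 had an Ensembl ID in the table of 43432 genes, and all 30 were among the 17039 that passed the low-count filter. The poly(A) RNA formed 5 libraries, 3 labelled as controls (a, b and c) and 2 labelled Mettl14 cko (a and b), where cko commonly stands for conditional knockout. No allele, driver line, strain or sex is labelled, nor whether each library is a different animal, so the p-values reflect just the scatter among these 5 samples, which may be technical. The series title names Mettl3 beside Mettl14, and the name of the deposited table contains Six3, a retinal transcription factor gene, and an unexplained abbreviation. The labels do not say whether Mettl3 was also deleted.

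Glutamate is the transmitter of photoreceptors, bipolar cells and ganglion cells. AMPA and kainate receptors are fast cation channels on horizontal cells, OFF bipolar cells, amacrine cells and ganglion cells, NMDA receptors are slower, calcium-permeable channels found mainly in the inner retina, and metabotropic receptors act through G proteins. Auxiliary proteins set how the channels reach the membrane and how they gate. In mice, bipolar cells form their synapses around the end of the first postnatal week, and the eyes are still closed.

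Total counts ran from 24315693 to 27100918 per library, with little difference between the groups. Mettl14, the partner of the RNA methyltransferase Mettl3, was at 41.5, 46.7 and 38.7 CPM (read counts relative to library size, scaled by TMM) in the controls, given here and below in the order a, b, c, and at 55.6 and 44.8 CPM in cko a and cko b (log2 fold change 0.25, SE 0.20; edgeR adjusted p = 0.640). The gene named in the label was therefore not lower, and directions below are those of the libraries labelled cko. Mettl3 was at 72.4, 71.3 and 65.97 CPM against 65.6 and 52.0 CPM, below every control in both though only just in cko a (log2 -0.25, SE 0.19; edgeR adjusted p = 0.615). Counts per gene cannot show the loss of single exons. In the retinal marker lists no gene was at 0 in all libraries, and of 6 markers of the lens, which lies next to the retina, 5 were called lower by edgeR, with sums of 639 to 1427 CPM in the controls against 63.4 and 19.0 CPM in cko a and cko b. Markers of blood, skeletal muscle and pigment epithelium had median log2 values of -1.89, -1.96 and -1.07, with 0 called at an adjusted p under 0.05 and 3 of 3, 3 of 3 and 2 of 4 lower at an unadjusted p under 0.05. Control c had the highest sum in each of these 4 lists, and their part in the receptor values was not tested.

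The pore of AMPA and kainate receptors is lined at a position known as the Q/R site, where RNA editing of the glutamine codon in Gria2, Grik1 and Grik2 gives arginine and, in AMPA receptors, blocks calcium entry. The coding stretch around it is shown because subunits with and without an edited site are compared in level below, and the genome encodes glutamine in all of them. Each line holds 60 bases from the GENCODE M21 transcripts, 5′ to 3′ on the gene's own strand, with the Q/R codon in capitals.
Gria1: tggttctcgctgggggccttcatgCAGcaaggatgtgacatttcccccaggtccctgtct
Gria2: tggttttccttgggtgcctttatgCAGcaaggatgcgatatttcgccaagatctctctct
Gria3: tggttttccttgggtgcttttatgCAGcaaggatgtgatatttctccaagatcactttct
Gria4: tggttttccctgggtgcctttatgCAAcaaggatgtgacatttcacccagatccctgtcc
Grik1: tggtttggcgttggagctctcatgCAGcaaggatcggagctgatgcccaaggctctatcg
Grik2: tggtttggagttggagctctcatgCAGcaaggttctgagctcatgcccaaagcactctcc
Grik5: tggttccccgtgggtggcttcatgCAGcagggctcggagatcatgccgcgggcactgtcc

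The Q/R codon is codon 607 of Gria2, on the minus strand at chr3:80706911-80706913 (GRCm38) in exon 11 of the transcript. It is codon 612 of Gria3, on the plus strand at chrX:41610265-41610267, and codon 608 of Gria4, on the minus strand at chr9:4464137-4464139. In Grik1 it is codon 636, on the minus strand at chr16:87940542-87940544. The genome reads CAG in 6 of the 7 stretches shown and CAA in Gria4, both glutamine. Gria2 and Gria3 were the closest AMPA pair over the stretch, with 55 of 60 bases identical, against 48 of 60 for Gria1 and Gria2. Grik1 and Grik2 shared 52 of 60 bases and Gria2 and Grik1 39 of 60. The deposited counts are per gene and hold no base calls, so editing was not measured.

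The AMPA receptor subunits Gria2, Gria3 and Gria4 were above every control in both libraries labelled cko, while the auxiliary protein Cnih2 was below every control. None of these differences passed the test over all genes. Among the 30 genes, 0 passed edgeR's quasi-likelihood test at an adjusted p under 0.05, where 17 of 17039 genes (0.0998%) did, and 0 passed DESeq2 or limma-voom. At an unadjusted p under 0.05, 4 genes were higher (Gria3, Gria4, Grik1 and Grm3), which is 13.3% of the 30 against 5.45% of all genes tested. At the same threshold 1 gene, Cnih2, was lower, which is 3.33% against 5.36%. The same 4 and 1 genes had an unadjusted p under 0.05 with DESeq2 and with limma-voom. In 8 genes both libraries labelled cko lay above all controls (26.7%, against 15.8% of all genes tested), and in 2 genes both lay below (6.67%, against 13.7%). Both counts were made with TMM scaling only and depend on it, since the margins were small for Grm5, Grm8 and Cnih3. The median log2 fold change over the 30 genes was 0.18, against -0.01 over all genes tested, with 18 genes above 0 and 12 below. This median rested on the library labelled cko b: without it the value was -0.15. The counts rested on single libraries too: 1 gene was higher without control a, control c or the library labelled cko b, and 8 without control b. The share of all genes tested that was higher moved too, to 1.61%, 2.76% and 3.59% in the former fits and 9.13% in the latter. Lower genes numbered 0 when cko a was left out and 8 when cko b was, where the share of all genes tested was 3.91% and 9.38%.

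**Figure D1:**
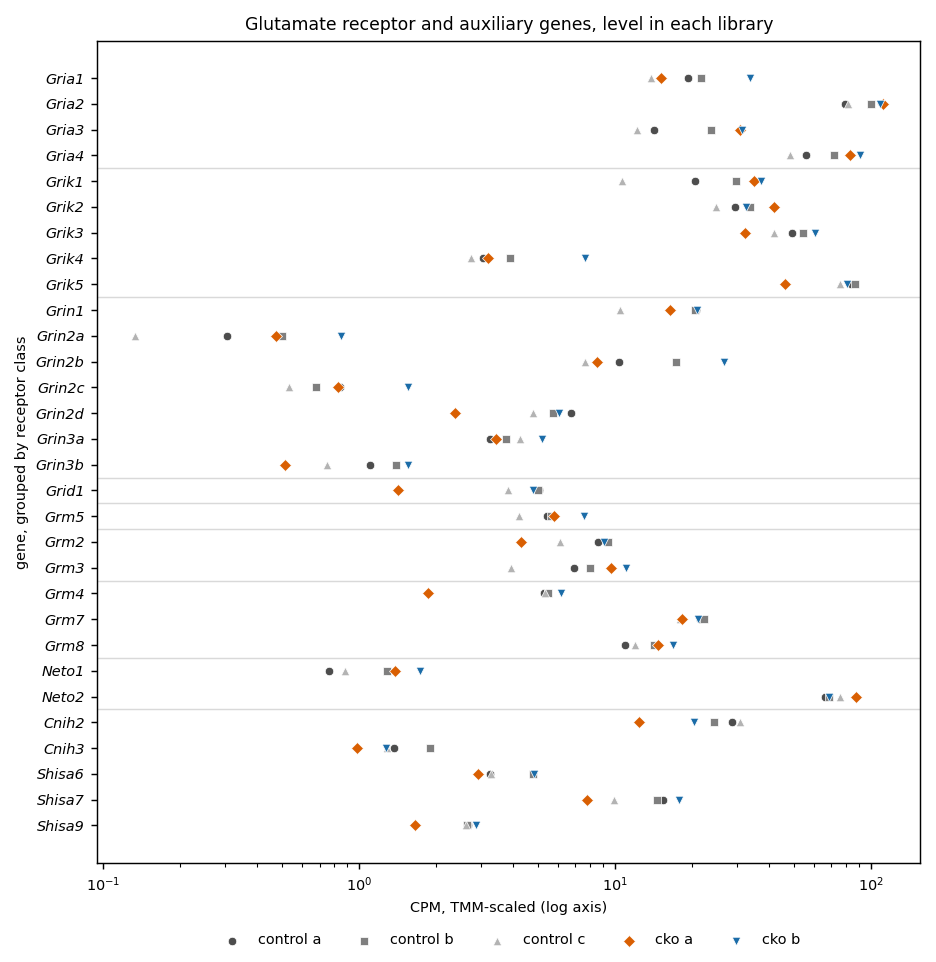
Level of each of the 30 genes in each library, in CPM on a log axis, with genes in rows grouped by receptor class and 1 symbol per library. The orange diamonds (cko a) and blue triangles (cko b) both lie to the right of all controls for Gria2, Gria3, Gria4, Grik1, Grm3, Grm5, Grm8 and Neto1, and to the left for Cnih2 and Cnih3.

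Gria3, an AMPA subunit on the X chromosome (ENSMUSG00000001986, chrX:41400854-41678601, plus strand), showed the largest difference relative to its error. Its level was 14.2, 23.8 and 12.2 CPM in the controls, and it reached 30.8 CPM in cko a and 31.4 CPM in cko b. Both lay above all controls, and they differed from each other by less than the controls did. The log2 fold change was 0.89 (SE 0.28, 95% interval 0.27 to 1.51; edgeR unadjusted p = 0.00895, adjusted p = 0.433). Its unadjusted p stayed under 0.05 with each library left out in turn.

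Gria4, the AMPA subunit with the highest level per kilobase of exon in these retinas, was at 55.7, 71.9 and 48.1 CPM in the controls and 82.8 and 90.7 CPM in the libraries labelled cko. The groups did not overlap, and the log2 fold change was 0.57 (SE 0.21, 95% interval 0.11 to 1.03; edgeR unadjusted p = 0.0199, adjusted p = 0.433). Without control a, control c or the library labelled cko b the unadjusted p was 0.0986, 0.0701 and 0.0833. Gria2, whose edited form keeps calcium out, was at 79.5, 99.7 and 81.5 CPM against 111 and 108 CPM. Its groups did not overlap either, but the log2 fold change was 0.34 with an interval of -0.08 to 0.75. Gria1, the subunit best known for activity-dependent insertion at synapses, was at 19.3, 21.7 and 13.8 CPM against 15.2 and 33.7 CPM. The library labelled cko a lay within the control range and cko b above it, so that Gria1 split the 2 libraries of that group (log2 0.42, SE 0.33). Summed over the 4 subunits, AMPA receptor transcripts were at 169, 217 and 156 CPM in the controls and 240 and 264 CPM in the libraries labelled cko. In bulk retina, a different number of cells of a type and a different amount of RNA per cell cannot be told apart.

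Of the 5 auxiliary proteins of AMPA receptors among the 30 genes, 2 lay below every control in both libraries labelled cko and 3 split those libraries. The 2 below were the only such genes among the 30 (6.67%, against 13.7% of all genes tested). Cnih2, a cornichon protein that carries AMPA receptors out of the endoplasmic reticulum and slows their closing (ENSMUSG00000024873, chr19:5092868-5098521, minus strand), was at 28.7, 24.3 and 30.7 CPM in the controls and 12.4 and 20.3 CPM in the libraries labelled cko. Both lay below all controls. The log2 fold change was -0.77 (SE 0.26, 95% interval -1.34 to -0.19; edgeR unadjusted p = 0.0137, adjusted p = 0.433), and the unadjusted p was 0.108 without the library labelled cko a. Its relative Cnih3 was at 1.37, 1.90 and 1.28 CPM against 0.984 and 1.27 CPM, so cko b lay only just below the lowest control. Cnih3 is a low-count gene, with 36, 53 and 29 reads in the controls and 25 and 36 in the libraries labelled cko. In raw reads its groups overlapped, so its place below the controls rests on the scaling. Of the CKAMP proteins, which change desensitisation of AMPA receptors, Shisa9 was at 2.61 to 2.67 CPM in the controls and at 1.65 and 2.86 CPM in the libraries labelled cko. Shisa7 was at 9.94 to 15.4 CPM against 7.79 and 17.7 CPM, and Shisa6 at 3.24 to 4.80 against 2.91 and 4.83 CPM. In all 3 CKAMP genes the library labelled cko a lay below every control and cko b above every control. Their log2 fold changes were -0.22, -0.06 and 0.04.

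Of the 5 kainate receptor subunits, 3 had a log2 fold change above 0 and 2 below, and 0 were called at an adjusted p under 0.05. Grik1, the GluK1 subunit that OFF bipolar cells use (ENSMUSG00000022935, chr16:87895900-88290265, minus strand), was at 20.5, 29.6 and 10.6 CPM in the controls and 34.8 and 37.0 CPM in the libraries labelled cko. The groups did not overlap although the controls spanned a wide range (log2 0.83, SE 0.34, 95% interval 0.08 to 1.57; edgeR unadjusted p = 0.0328, adjusted p = 0.443). The unadjusted p was between 0.0637 and 0.107 without control a, control c or either library labelled cko, and 0.0532 with library totals in place of TMM. Grik5, the high-affinity GluK5 subunit and the kainate gene with the highest level per kilobase, was at 83.7, 86.7 and 75.6 CPM against 46.0 and 80.3 CPM. Its difference lay in the library labelled cko a alone, since cko b was inside the control range (log2 -0.38, SE 0.24). Grik4, the other high-affinity subunit, was at 2.74 to 3.90 CPM in the controls and 3.19 and 7.65 CPM in the libraries labelled cko, the reverse arrangement, with cko b alone above the controls. Grik2 and Grik3, which like Grik1 can form channels by themselves, had log2 values of 0.34 and -0.07, and their groups overlapped. Of the kainate auxiliary proteins, Neto1 was at 0.762, 1.29 and 0.884 CPM against 1.38 and 1.73 CPM, and Neto2 at 66.3 to 75.8 CPM against 87.6 and 68.3 CPM. Neto1 lay above all controls in both libraries but is a low-count gene, with 20 to 36 reads in each control (log2 0.66, SE 0.38).

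In all NMDA receptor subunits but Grin2a, the gap between the 2 libraries labelled cko was wider than the difference between the groups. Grin1, the obligatory GluN1 subunit, was at 20.8, 20.6 and 10.4 CPM in the controls and 16.4 and 20.8 CPM in cko a and cko b, a log2 fold change of 0.11 (SE 0.30). Grin2b, the GluN2B subunit that dominates in young neurons, was at 10.4, 17.4 and 7.64 CPM against 8.46 and 26.6 CPM. Grin2d was at 6.70, 5.73 and 4.77 CPM against 2.36 and 6.07 CPM. For Grin2b the library labelled cko b lay above all controls, and for Grin2d cko a lay below them. Grin2a, the GluN2A subunit that comes up later in development, had 3 to 24 reads per library and a log2 fold change of 1.04 with an interval of -0.23 to 2.31. Grin2c, Grin3a and Grin3b had log2 values of 0.80, 0.20 and -0.07, and Grin2c and Grin3b had 12 to 44 and 13 to 44 reads per library. Of the exon bases of Grin3b, 32.1% are shared with Tmem259 on the opposite strand, a gene at 112 to 166 CPM, and of those of Grin1, 13.5% are shared with the antisense gene Grin1os. The strand setting of the counting is not given in the sources used here, so reads of such pairs cannot be told apart. Grid1, the delta subunit that takes part in synapse adhesion, was at 5.03, 5.01 and 3.80 CPM against 1.42 and 4.76 CPM, low in cko a alone.

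Among metabotropic receptors, Grm3 of the inhibitory group II (ENSMUSG00000003974, chr5:9485541-9725170, minus strand) was at 6.90, 7.95 and 3.93 CPM in the controls and 9.61 and 11.003 CPM in the libraries labelled cko. Both lay above all controls (log2 0.72, SE 0.30, 95% interval 0.06 to 1.37; edgeR unadjusted p = 0.0351, adjusted p = 0.443), and the unadjusted p was between 0.0552 and 0.134 without control a, control c or either library labelled cko. Its group II partner Grm2 was at 8.57, 9.38 and 6.10 CPM against 4.29 and 9.06 CPM, low in cko a and within the controls in cko b. Of the group III receptors, which dampen transmitter release, Grm4 was at 5.30, 5.48 and 5.35 CPM in the controls and 1.85 and 6.17 CPM in the libraries labelled cko. The 3 controls lay close together, with the library labelled cko a far below and cko b slightly above them (log2 -0.42, SE 0.41). Grm7, found at ribbon synapses of bipolar cells, was at 17.9 to 22.2 CPM against 18.3 and 21.2 CPM (log2 -0.06, 95% interval -0.55 to 0.43). Grm8 was at 10.97 to 14.2 CPM against 14.8 and 16.9 CPM, and Grm5, the group I receptor that raises intracellular calcium, at 4.197 to 5.62 CPM against 5.79 and 7.55 CPM. Both Grm8 and Grm5 lay above all controls in both libraries, by small margins (log2 0.35 and 0.39, SE 0.23 and 0.27).

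**Figure D2:**
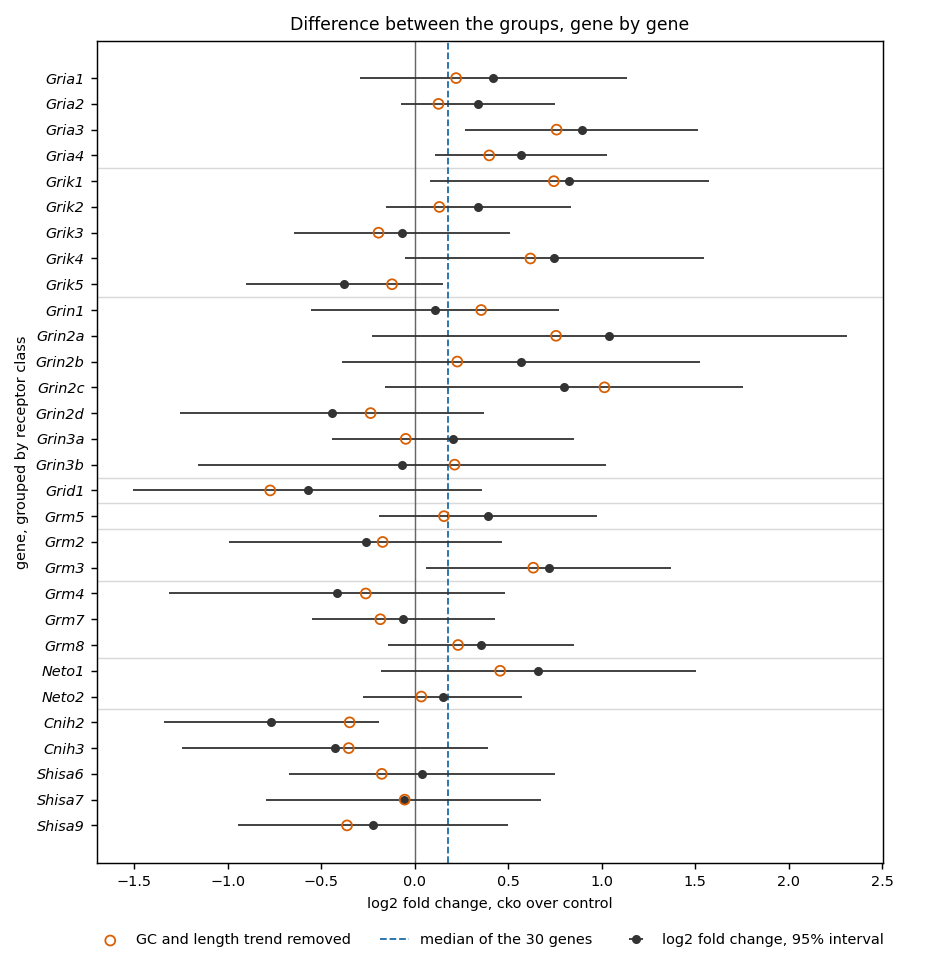
Log2 fold change of each of the 30 genes, libraries labelled cko over control, with 95% intervals (filled points) and the value after removal of a trend on GC content and transcript length (open orange circles). The intervals of Gria3, Gria4, Grik1 and Grm3 lie above 0 and that of Cnih2 below it, and the dashed line marks the median of 0.18.

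The 2 libraries labelled cko differed from each other in many of these genes. In 17 of the 30 genes (56.7%) the gap between them exceeded the whole range of the 3 controls, against 37.4% of all genes tested. The median gap was 0.71 on the log2 scale, against 0.32 for all genes tested. Relative to the control mean the median of the 30 genes was -0.14 for cko a but 0.41 for cko b, and the controls themselves were at 0.03, 0.21 and -0.24. Control c was the lowest control and cko b the highest library.

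In the library labelled cko a the genes were ordered by base composition. Across the 30 genes its log2 difference from the control mean had a Pearson correlation of -0.69 with the GC content of the longest transcript, and across 16911 tested genes it was -0.40. In the library labelled cko b these were -0.24 and -0.07, and in control a 0.54 and 0.23. In control b they were -0.33 and 0.03, and in control c -0.05 and -0.17. The values share libraries and describe genes, not replicates. The 9 genes with a GC content under 45%, among them Gria2, Gria3, Gria4 and Grm8, had a median of 0.49 in cko a and 0.58 in cko b. The 9 genes over 55%, among them Grik5, Grin2d, Grm4 and Cnih2, had a median of -0.87 in cko a and 0.20 in cko b. With a smooth trend on GC content and length removed from every library, a setting chosen after seeing the data, the median over the 30 genes was 0.13. Gria3, Grik1, Grm3 and Gria4 then had log2 values of 0.76, 0.74, 0.63 and 0.40 (unadjusted p = 0.0153, 0.0322, 0.0376 and 0.0347). Cnih2 moved from -0.77 to -0.35 (edgeR unadjusted p = 0.0990), Grik5 from -0.38 to -0.12 and Gria2 from 0.34 to 0.13. Grin2c, with 12 to 44 reads per library, had 1.01 (edgeR unadjusted p = 0.0245). Grid1 moved away from 0, from -0.57 to -0.77. EdgeR called 0 of the 30 genes in that fit too.

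**Figure D3:**
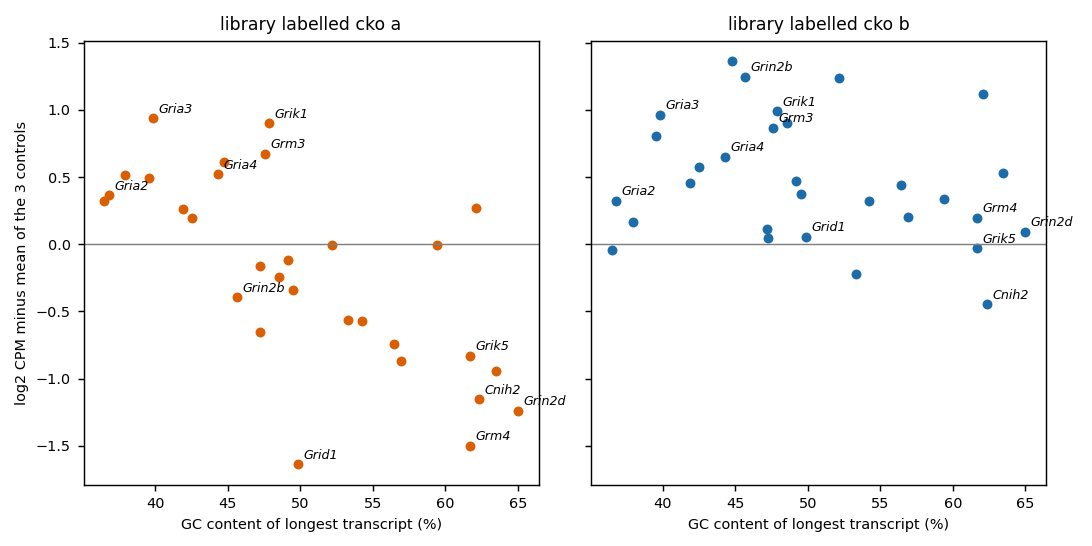
Difference of each of the 30 genes from the mean of the 3 controls, in log2 CPM, against the GC content of its longest transcript, for the library labelled cko a (left) and cko b (right). In cko a the values run from above 0 at low GC content to below -1 for Grin2d, Grm4 and Cnih2 at high GC content, with Grid1 lowest of all at a GC content of 49.9%, while in cko b most genes lie above 0 at any GC content.

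Levels per kilobase of exon give the order of the genes within the controls. Cnih2 stood highest at 20.4 ± 2.39 CPM per kilobase (SD, n = 3), followed by Grik5 at 15.9 ± 1.12, Neto2 at 11.5 ± 0.803 and Gria4 at 9.29 ± 1.93. Neto2 and Gria4 lay closer than the sum of their spreads. Gria2 at 5.59 ± 0.718 and Grik3 at 5.40 ± 0.721 did not differ beyond their spread, nor did Grm7 at 3.49 ± 0.390, Gria1 at 3.02 ± 0.667 and Grik1 at 3.01 ± 1.41. At the other end stood Neto1 and Grin2c, at 0.117 and 0.136, and Grin2a, at 0.0174. The order depends on which exons are counted as length: per kilobase of coding sequence Gria2 was at 32.8 and Gria4 at 21.6 CPM, the reverse of their order per kilobase of exon, because the annotated exons of Gria2 span 15548 bases and its coding sequence 2649.

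Shares within a receptor class do not depend on library scaling. With 3 against 2 libraries an exact permutation test cannot give a p under 0.10 (two-sided), and over the 19 shares tested the smallest Benjamini-Hochberg adjusted value of these exact tests was 0.237. Grik1 made up 11.1%, 14.4% and 6.80% of the kainate subunits in the controls and 24.2% and 17.5% in the libraries labelled cko (exact p = 0.1). Grik5 made up 59.0%, 55.1% and 63.1% against 41.7% and 49.3% (exact p = 0.1). For both subunits the groups did not overlap, and the GC content of their longest transcripts, which went with the values in cko a, was 47.9% and 61.7%. A lower share of any subunit raises the rest of its class, so the 2 are not separate results. Grm3 made up 22.2%, 23.3% and 15.9% of the 6 metabotropic genes in the controls and 33.2% and 28.8% in the libraries labelled cko (exact p = 0.1). The shares of Grik4, Grin2a, Grin2c, Grm2 and Grm5 also reached this smallest possible exact p of 0.1 per kilobase of exon. Per kilobase of coding sequence Grin2c and Grm2 did not (exact p = 0.3 for both), while Gria4 and Grm7 did. Among the GluN2 genes Grin2d made up 62.6%, 49.95% and 63.0% against 40.0% and 39.0% (exact p = 0.2), and Grin2b 26.0%, 40.6% and 27.1% against 38.5% and 45.8% (exact p = 0.3). Grin2d was thus the largest GluN2 share in every control per kilobase of exon, but per kilobase of coding sequence Grin2b was, at 59.6% ± 8.31 (SD, n = 3) against 34.5% ± 7.74 for Grin2d. Among AMPA subunits Gria2 made up 27.5%, 26.9% and 32.0% in the controls and 27.6% and 23.1% in the libraries labelled cko, so the groups overlapped (exact p = 0.5). Gria3 made up 7.76%, 10.1% and 7.55% against 12.0% and 10.6%, above all controls in both libraries (exact p = 0.2).

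**Figure D4:**
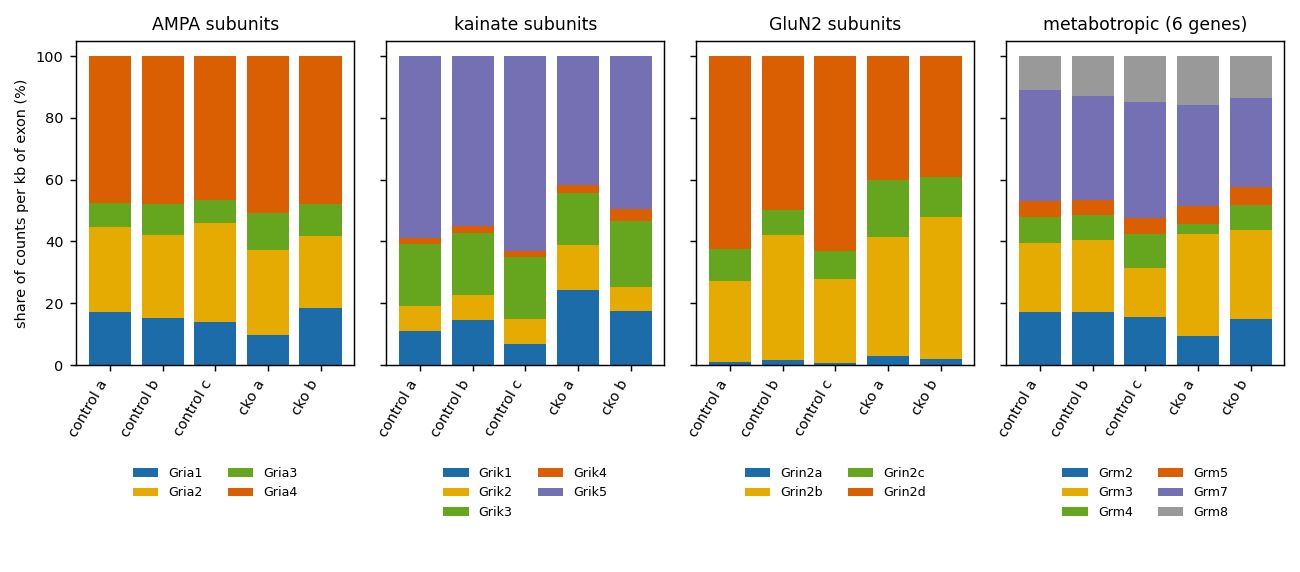
Share of each subunit within its receptor class in each library, as percent of the counts per kilobase of exon summed over the class, with 1 bar per library and 1 colour per gene. The Grik5 segment is shorter and the Grik1 segment taller in both libraries labelled cko than in any control, while the Gria2 segment overlaps between the groups.

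Another 52 genes of the glutamate synapse were examined, among them AMPA auxiliaries of the TARP family, assembly and editing factors, scaffolds, extracellular organisers and transporters. EdgeR called 0 of them at an adjusted p under 0.05, as did DESeq2 and limma-voom. At an unadjusted p under 0.05, 3 were higher (5.77%, against 5.45% of all genes tested) and 5 lower (9.62%, against 5.36%), and their median log2 fold change was -0.01. The 3 higher were Dlg2, a scaffold of the PSD-95 family (log2 0.66), the cerebellin Cbln4 (0.65) and the TARP Cacng5 (0.52). Of the 5 lower, Slc17a7, which loads glutamate into synaptic vesicles, was at 489, 411 and 556 CPM in the controls and 315 and 282 CPM in cko a and cko b, -0.70 as a log2 fold change (SE 0.22, with an adjusted p of 0.433 by edgeR). Cacng7, a TARP, had a log2 value of -0.71 and Nptx2, a pentraxin that clusters AMPA receptors, -0.70. In each of these 3 genes both libraries lay below all controls, as they did in 7 of the 52 genes (13.5%, against 13.7% of all genes tested). Both lay above all controls in another 7 of the 52 (13.5%, against 15.8%). The other 2 of the 5 lower genes were C1ql1 (-1.01) and the scaffold Homer3 (-0.51). C1ql1 was called lower with no low-count filter (log2 -1.02, edgeR adjusted p = 0.0221). Adarb1, the enzyme that edits the Q/R site, was at 38.0, 37.1 and 32.0 CPM against 21.3 and 52.5 CPM, with cko a below and cko b above all controls.

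Markers of cells that carry these receptors also varied between libraries. The 5 horizontal cell markers summed to 77.3, 109 and 73.1 CPM in the controls and 83.1 and 112 CPM in the libraries labelled cko, and the 10 amacrine markers to 889, 932 and 798 against 959 and 1094 CPM. The 9 bipolar markers summed to 1046 to 1332 CPM against 1590 and 1334 CPM, and the 9 ganglion cell markers to 509 to 656 CPM against 595 and 542 CPM. These sums depended on single genes. Without Otx2, which photoreceptors also express, the bipolar sum was 346, 312 and 334 CPM in the controls and 344 and 219 CPM in cko a and cko b. Without Pax6 the amacrine sum was 672, 665 and 618 CPM against 615 and 750 CPM, so that cko a lay just below and cko b above the controls. The 9 progenitor markers summed to 588 to 840 CPM against 435 and 777 CPM, with the library labelled cko a below all controls. Without Ccnd1 that sum was 375, 549 and 370 CPM against 304 and 552 CPM. As a mean log2 difference from the controls, amacrine markers were at -0.19 in cko a and 0.44 in cko b, horizontal cell markers at 0.05 and 0.73, and bipolar markers at 0.10 and -0.38. Of the 42 genes in these 5 lists edgeR called 0 at an adjusted p under 0.05, and at an unadjusted p under 0.05 it gave 3 higher (7.14%, against 5.45% of all genes tested) and 3 lower (7.14%, against 5.36%). Their part in the receptor values was not tested.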

How the data were processed

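Poly(A) RNA of postnatal day 7 mouse retina was sequenced as 5 libraries, 3 of controls and 2 labelled Mettl14 cko. The deposited values are raw read counts per Ensembl gene, and the submitters' processing notes name CASAVA, HISAT2, featureCounts and build mm10. For versions, annotation release and strand setting no source was found here. Symbols, coordinates, lengths and sequences came from GENCODE M21 (GRCm38), which gave a symbol to 42462 of 43432 IDs. Genes passing filterByExpr (17039) were scaled by TMM and tested with edgeR 4.0.16 (R 4.3.3) quasi-likelihood F-tests on all 5 libraries without covariates, with Benjamini-Hochberg adjustment over all of them. CPM values are TMM-scaled. Alternatives were other scalings, other filters, DESeq2 1.42.0, limma-voom (limma 3.58.1), robust edgeR, each library left out, a block on the letter in the titles, and a spline trend on GC content and length. The fits were also run on simulated counts that held no GC trend, and no result given here rests on that run. Shares within a class used counts per kilobase of exon and exact two-sided permutation tests. The replicate letters were not taken to pair libraries. Every library pair differed by more than counting noise, with a chi-square per degree of freedom of at least 26.7. All 30 genes are described, with full statistics for those with an unadjusted p under 0.05. Of the 52 other synaptic genes, those with the smallest p in each direction are named, and Adarb1, C1ql1 and Homer3 were chosen after their values were seen. Some of the 52 are not reported here by name. The members, gene lists and marker lists were chosen with earlier results of these data known.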

Additional observations from a re-analysis of the deposited data

How the results depend on the processing

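The count of 0 genes called among the 30 held under all settings run, including an adjusted p under 0.10. With single libraries left out, the number of higher genes (unadjusted p under 0.05) ran from 1 to 8, that of lower genes from 0 to 8 and the median log2 fold change from -0.15 to 0.38. With a replicate block on the title letters, 3 of the 30 genes were lower, 3 were higher and 0 were called. Of all genes tested, 5.53% were lower and 4.32% higher under the block. With the GC and length trend removed 0 of the 30 were lower, against 5.94% of all genes tested. Deviations of same-lettered libraries from their group means correlated at -0.01 and 0.15 over 17039 genes. These values cannot decide whether the letters are pairs, because the 2 libraries labelled cko mirror each other around their mean. The labels state no pairing, and the letters were not taken as pairs. Over all genes the block gave 39 calls, DESeq2 85 and no low-count filter 262. Of the 52 other synaptic genes, 1 was called without the low-count filter, and 1 was higher under the block, against 4.32% of all genes tested. With library totals, without the filter and with the trend removed, 3, 9 and 3 were lower. The shares of all genes tested were 3.91%, 5.39% and 5.94%. Their leave-one-out ranges were 0 to 9 higher, 1 to 19 lower and -0.42 to 0.18 for the median, which was above 0 without control b (0.01) and with library totals (0.040). The highest count of lower genes came without cko b, where the median of the 52 genes was -0.42, against -0.021 over all genes tested. That of higher genes came without cko a, where the median was 0.18, against -0.0086 over all genes tested. Both fits left 1 library labelled cko, and the 2 medians had opposite signs. Of the 30 genes, 16 turned direction without some library, and the cause was not tested. Their ranges were -0.27 to 0.88 (Gria1), -0.59 to 0.31 (Grik3), -0.022 to 1.24 (Grik4), -0.17 to 0.27 (Grin1), -0.48 to 1.17 (Grin2b), -1.28 to 0.079 (Grin2d), -0.13 to 0.47 (Grin3a), -1.09 to 0.51 (Grin3b), -1.70 to 0.043 (Grid1), -0.90 to 0.17 (Grm2), -1.54 to 0.20 (Grm4), -0.17 to 0.040 (Grm7), -0.042 to 0.32 (Neto2), -0.37 to 0.36 (Shisa6), -0.77 to 0.41 (Shisa7) and -0.67 to 0.11 (Shisa9). Library totals turned Grik3 (0.0036), Grin3b (0.0016) and Shisa7 (0.013), the block turned Grin1 (-0.16) and Shisa6 (-0.067), and the trend removal, chosen after seeing the data, turned Grin3a (-0.048), Grin3b (0.21) and Shisa6 (-0.18). Where a group had 1 library left, it was taken to vary like the other group. Low counts limit Grin2a, Grin2c, Grin3b, Neto1 and Cnih3.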
